A study of Homo sapiens with 12 samples.

Results

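The aminoacyl-tRNA synthetases were measured on 12 expression arrays of acute lymphoblastic leukemia (ALL) cell lines. The 36 member genes were listed by name and not by a threshold on values, 20 for cytosolic and 16 for mitochondrial enzymes. All 36 were found among the 34694 entries of the deposited value table. A gene was called detected when its detection p-value, the chance of such a signal on the array's negative control probes, was under 0.01 on at least 4 of the 12 arrays. By this criterion 34 members were detected, 19 of 20 cytosolic and 15 of 16 mitochondrial, among 12507 detected genes in all. FARSB, the beta subunit of the cytosolic phenylalanine enzyme, was detected on 0 arrays, and PARS2, the mitochondrial proline enzyme, on 2. WARS2, the mitochondrial tryptophan enzyme, was detected on 9 arrays, and the other 33 members on all 12.

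An aminoacyl-tRNA synthetase joins an amino acid to its tRNA, and the charged tRNA then carries it to the ribosome. Nearly all cytosolic and mitochondrial enzymes are made from separate nuclear genes, and the mitochondrial gene usually carries the suffix 2, while GARS and KARS give rise to enzymes of both compartments. Several cytosolic enzymes are bound together in a multisynthetase complex. When amino acids run short, the transcription factor ATF4, a leucine zipper protein related to CREB, raises many of the cytosolic synthetase genes together with genes of amino acid synthesis and uptake. The gene symbols used here are those of the array, so that AARS is the gene now named AARS1.

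Jurkat and Molt4 are human T-ALL lines, and Nalm6 and RS4;11 are human B-cell precursor ALL (BCP-ALL) lines. Each of the 4 lines was transduced with a lentiviral pLKO.1 vector carrying mCherry and either a scrambled shRNA (shControl) or one of the CREB shRNAs shCREB2 and shCREB3. Stably transduced cells were expanded, and the time from transduction to RNA is not given in the sources used here. For every line and vector there was 1 array, so 4 arrays carry each vector. The replicate is thus the cell line. For vectors, p-values measure how far the differences within a line vary between lines, and for lineages the spread between lines. In comparisons of single vectors this spread was pooled over all 12 arrays, so the vector outside the comparison also entered it. Precision is limited by how few arrays there are. In cultures, fewer cells of a kind and less RNA per cell cannot be told apart.

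The arrays fitted their lineage labels, since CD3D lay between 13.09 and 13.63 on the log2 scale in the T-ALL lines and between 6.62 and 7.90 in the BCP-ALL lines, while CD79B lay between 7.62 and 8.05 and between 11.17 and 13.54. The B-cell marker CD79A was not at background in the T-ALL lines, where it lay between 7.76 and 9.52. CREB1, which encodes CREB, was not lower on average over the lines on the arrays labelled shCREB2 (log2 difference 0.08, limma adjusted p = 0.659) or shCREB3 (0.28, adjusted p = 0.169), so vectors are named below as the labels give them. In single lines it was lower with shCREB2 in RS4;11, at 11.72 against 12.01, and 11.45 against 11.46 in Jurkat. These arrays do not measure CREB protein, which the authors report by Western blot as reduced with shCREB2 and shCREB3 in every line, to varying degrees. The arrays had 14319 to 15659 probes over background. The Nalm6 shCREB2 array stood apart, with a highest correlation to any other array of 0.970, where the other arrays reached at least 0.986.

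Levels are given below as log2 of the quantile-normalized signal, and differences as log2 differences within a cell line. Where 4 values follow each other without names, they are those of Jurkat, Molt4, Nalm6 and RS4;11 in this order. Probes differ in brightness, so the level of one gene cannot be set against that of another, and cytosolic and mitochondrial enzymes were compared by their differences only. The comparisons of shCREB2 and of shCREB3 with shControl share the same 4 shControl arrays, so their values are given side by side and the difference between the shRNAs was tested directly.

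The first question was whether the cytosolic and mitochondrial enzymes moved apart by line and vector. With shCREB2, the median difference from shControl over the 19 cytosolic genes was -0.01 in Jurkat, -0.03 in Molt4, -0.02 in Nalm6 and 0.04 in RS4;11. Over the 15 mitochondrial genes it was 0.10, 0.02, 0.01 and -0.02 in the same lines. The median over all genes lay between 0.00 and 0.01. Farthest from it was the mitochondrial median in Jurkat, where 12 of 15 genes were above 0. It lay within the quartiles of all genes in that line, -0.10 and 0.12. The cytosolic minus the mitochondrial median was -0.11 in Jurkat, -0.04 in Molt4, -0.04 in Nalm6 and 0.06 in RS4;11.

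With shCREB3, the cytosolic median was -0.22 in Jurkat, -0.07 in Molt4, -0.10 in Nalm6 and -0.06 in RS4;11. The mitochondrial median was -0.12, -0.14, -0.14 and 0.01. The cytosolic median was thus below that of all genes in every line, and the mitochondrial one in every line but RS4;11. The cytosolic minus the mitochondrial median was -0.10 in Jurkat, 0.07 in Molt4, 0.04 in Nalm6 and -0.07 in RS4;11, so the classes did not separate in the same direction in the 4 lines. Averaged over lines, the medians were -0.11 ± 0.07 for the cytosolic and -0.10 ± 0.07 for the mitochondrial genes (SD, n = 4). With median scaling in place of quantile normalization they were -0.06 and -0.05, where the median of all genes in the fit moved from 0.00618 to 0.04. These medians are descriptions, since members of a class share arrays and are not replicates.

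**Figure D1:**
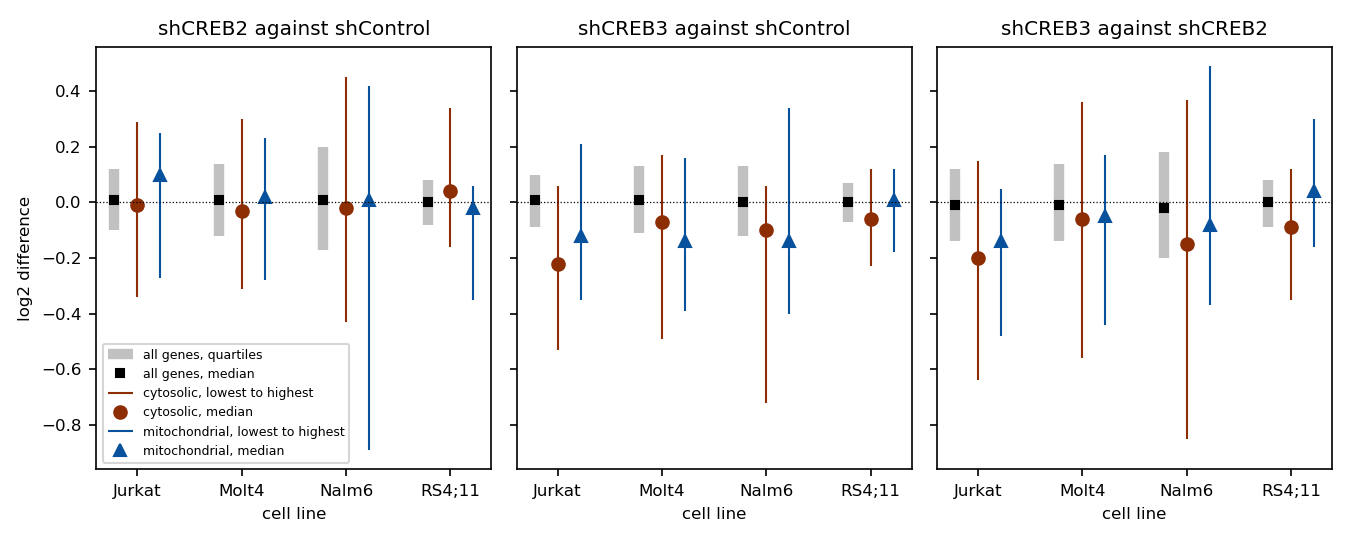
Each panel plots the log2 difference against the cell line for one comparison of vectors, with the median of the cytosolic and of the mitochondrial genes, bars from the lowest to the highest gene of each class, and the median and quartiles of all detected genes. With shCREB2 the class medians lie between -0.03 and 0.10, and with shCREB3 the cytosolic median is negative in all 4 lines, from -0.22 to -0.06.

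**Figure D2:**
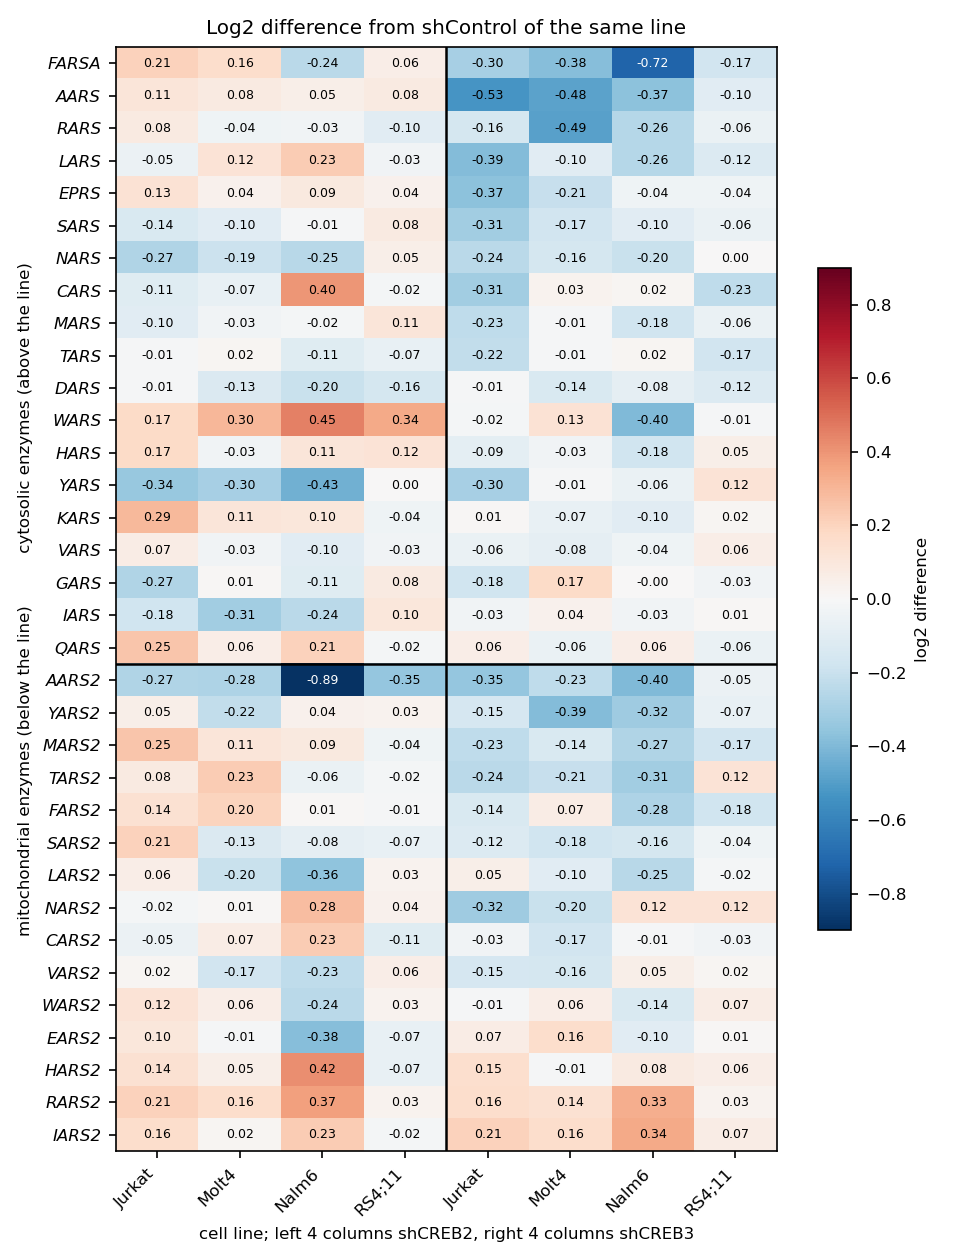
Colour gives the log2 difference of each of the 34 detected genes from the shControl array of the same line, with 1 row per gene and 1 column per shCREB array. The deepest decrease is AARS2 in Nalm6 with shCREB2, at -0.89, and AARS changes sign between the shRNAs in all 4 lines.

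In the comparison of shCREB3 with shControl, AARS fell and no other member passed the test. AARS, which charges alanine tRNA, had levels of 11.67 in Jurkat, 11.51 in Molt4, 11.67 in Nalm6 and 12.04 in RS4;11 with shControl. With shCREB3 these were 11.15, 11.04, 11.30 and 11.94. With shCREB2 they were 11.78, 11.60, 11.72 and 12.12. AARS was lower with shCREB3 and higher with shCREB2 in every line, while the shCREB3 and shControl arrays overlapped only through RS4;11, the highest line. AARS fell with shCREB3 by 0.37 (SE 0.08, limma adjusted p = 0.0481), and 1 of 34 members called compares with 1.44% of all 12507 genes called in either direction and 1.06% called lower. With shCREB2 its difference was 0.08 (SE 0.08, adjusted p = 0.548). The call with shCREB3 was lost when Jurkat, Molt4 or Nalm6 was left out, and also with normexp background correction, median scaling or the deposited normalized values, and without the detection filter.

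All 19 cytosolic differences with shCREB3 were below 0, the median being -0.09, where 47.8% of all genes were below 0 and their median was 0.00618. With median scaling in place of quantile normalization 14 of 19 were below 0, beside 34.8% of all genes, and with single lines or arrays left out 15 to 19 were. Of the 19 genes, 8 were lower in 4 of 4 lines, beside 16.3% of all genes. FARSA, the alpha subunit of the phenylalanine enzyme, had a difference of -0.39 (SE 0.09, adjusted p = 0.0569). RARS, which charges arginine tRNA, followed at -0.24 (adjusted p = 0.144), LARS for leucine at -0.21 (adjusted p = 0.157), and EPRS, which charges both glutamate and proline tRNA, at -0.17 (adjusted p = 0.258). QARS for glutamine, at -0.00, and GARS for glycine, at -0.01, were near 0. At an unadjusted p under 0.05 limma found 7 cytosolic genes lower and 0 higher, beside 17.8% of all genes in either direction.

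Of the mitochondrial genes, 11 of 15 were below 0 with shCREB3, with a median of -0.07, and 5 were lower in 4 of 4 lines. None was called by limma, and 2 were higher and 3 lower at an unadjusted p under 0.05, to be read beside the same 17.8%. The most negative was AARS2 at -0.26 (SE 0.10, adjusted p = 0.236). YARS2, which charges mitochondrial tyrosine tRNA, had -0.23 (SE 0.07, adjusted p = 0.118). The isoleucine enzyme IARS2 stood on the other side at 0.20 (SE 0.06, adjusted p = 0.122).

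The direct comparison of shCREB3 with shCREB2 gave the most calls: 7 of 34 members were lower with shCREB3 and 0 were higher, where 14.5% of all genes were called and 7.52% were called lower. The cytosolic members were AARS, FARSA, WARS, LARS and EPRS, and the mitochondrial ones MARS2 and FARS2. Each was lower in 4 of 4 lines. Over the 19 cytosolic genes 14 were below 0 with a median of -0.13, and over the 15 mitochondrial genes 9 with a median of -0.07, beside 51.9% of all genes below 0 and a median of -0.00689. Of the cytosolic genes 7 and of the mitochondrial genes 3 were lower in 4 of 4 lines, beside 19.9% of all genes.

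AARS differed between the shRNAs by -0.64 in Jurkat, -0.56 in Molt4, -0.42 in Nalm6 and -0.18 in RS4;11, and by -0.45 in the fit (SE 0.08, limma adjusted p = 0.00694). It had the most negative difference and the smallest adjusted p of the members.

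FARSA had levels of 8.75 in Jurkat, 8.83 in Molt4, 8.76 in Nalm6 and 8.36 in RS4;11 with shControl. With shCREB2 the levels were 8.96, 8.99, 8.53 and 8.42. With shCREB3 they were 8.45, 8.44, 8.04 and 8.19, lower than both other arrays in every line. The shCREB3 arrays overlapped with those of shControl and shCREB2 only through the low levels of RS4;11. FARSA differed between the shRNAs by -0.44 (SE 0.09, limma adjusted p = 0.0115). Its partner subunit FARSB was not detected, so the change could not be followed there. The 250 bases before its start are shown because it is one of the called members with a matched promoter. The sequence is from RefSeq, GRCh38.p14, chr19:12933712-12933961, minus strand, written in the direction of the gene. Capitals mark TGACG, the core of the cyclic AMP response element (CRE) bound by CREB, 117 bases before the start.
FARSA: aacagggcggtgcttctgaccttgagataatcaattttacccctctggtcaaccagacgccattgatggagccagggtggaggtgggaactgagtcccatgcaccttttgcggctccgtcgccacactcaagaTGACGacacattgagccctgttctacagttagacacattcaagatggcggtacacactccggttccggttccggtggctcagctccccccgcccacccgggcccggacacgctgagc

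WARS, the cytosolic tryptophan enzyme, which is also induced by interferon gamma, differed mostly through higher levels with shCREB2. With shControl its levels were 9.34, 9.30, 9.79 and 9.45. With shCREB2 they were 9.51, 9.60, 10.23 and 9.79. With shCREB3 they were 9.32, 9.43, 9.39 and 9.44. The shCREB2 array was the highest of each line, as also for AARS and EPRS, and the arrays of the vectors overlapped. WARS differed between the shRNAs by -0.39 (SE 0.10, adjusted p = 0.0323), with 0.31 for shCREB2 (adjusted p = 0.0887) and -0.07 for shCREB3 (adjusted p = 0.776) against shControl. Nalm6 had the widest gap, -0.85, and without Nalm6 the difference was -0.23 (adjusted p = 0.0378). A second detected probe of WARS gave -0.36, 0.27 and -0.09 for these comparisons.

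LARS and EPRS are members of the multisynthetase complex. LARS had levels of 10.32 in Jurkat, 10.20 in Molt4, 9.34 in Nalm6 and 10.12 in RS4;11 with shControl. The levels were 10.27, 10.32, 9.57 and 10.09 with shCREB2, and 9.93, 10.10, 9.09 and 10.00 with shCREB3. The shCREB3 array was the lowest of each line, and Nalm6 was the lowest line with every vector. LARS differed between the shRNAs by -0.28 (SE 0.07, limma adjusted p = 0.0292). EPRS had levels of 11.29, 10.90, 11.35 and 11.26 with shControl. They were 11.41, 10.94, 11.45 and 11.30 with shCREB2, and 10.92, 10.69, 11.31 and 11.23 with shCREB3. Here the gap was widest in Jurkat, at -0.49, and narrowest in RS4;11, at -0.08. EPRS differed by -0.24 (SE 0.07, adjusted p = 0.0483), and by -0.15 (adjusted p = 0.237) without Jurkat.

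Of the mitochondrial genes, MARS2 charges methionine tRNA. Its levels with shControl were 7.97 in Jurkat, 8.08 in Molt4, 8.37 in Nalm6 and 8.18 in RS4;11. They were 8.22, 8.19, 8.46 and 8.14 with shCREB2, and 7.74, 7.94, 8.09 and 8.01 with shCREB3. In every line the shCREB3 array was the lowest of the 3. MARS2 differed between the shRNAs by -0.31 (SE 0.06, limma adjusted p = 0.0137). FARS2 charges mitochondrial phenylalanine tRNA. Its levels with shControl were 9.25, 9.16, 8.97 and 8.54. They were 9.39, 9.37, 8.98 and 8.53 with shCREB2, and 9.12, 9.23, 8.69 and 8.36 with shCREB3. The difference between the shRNAs was -0.22 (SE 0.06, adjusted p = 0.0438), and the order of the lines was wider than the step between vectors. The phenylalanine enzymes of the cytosol (FARSA) and of mitochondria (FARS2) were thus both called lower.

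**Figure D3:**
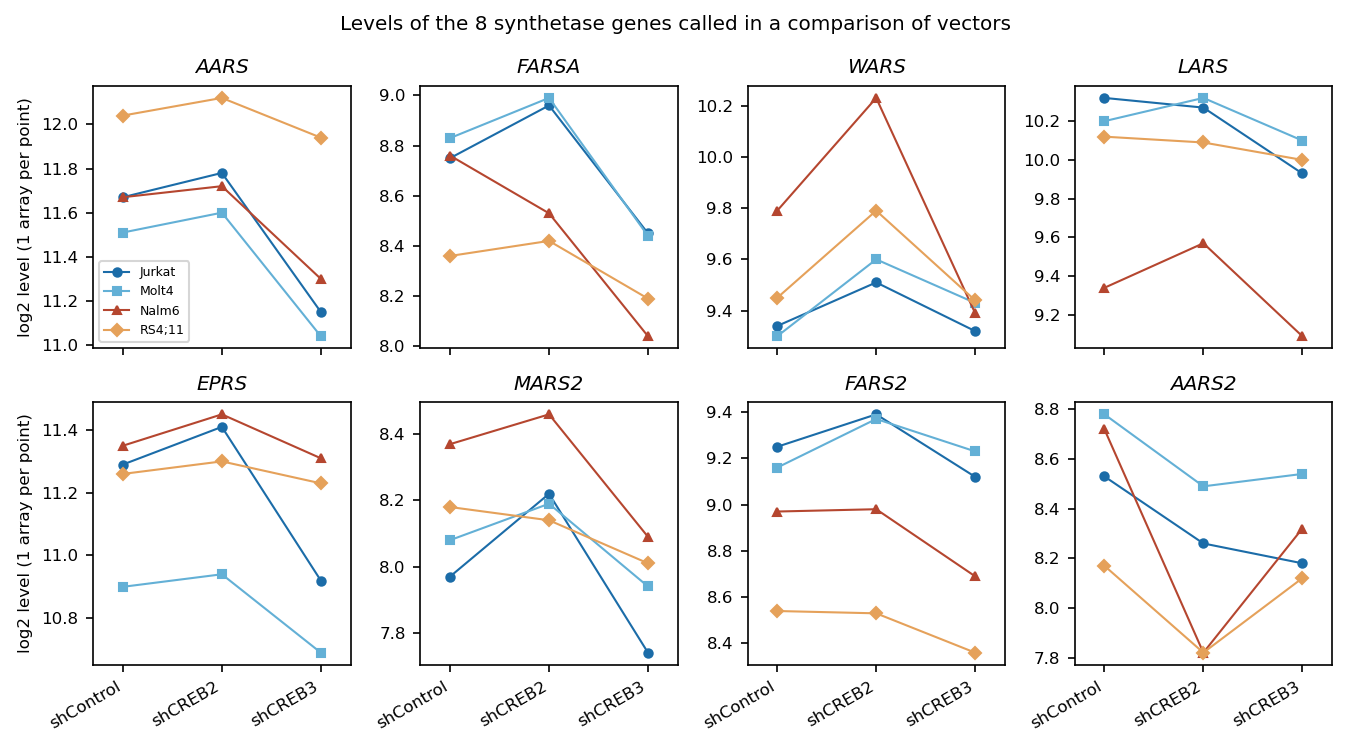
The log2 level of each of the 8 genes called in a comparison of vectors is plotted for shControl, shCREB2 and shCREB3, with 1 point per array and a line joining the arrays of a cell line. AARS, FARSA, LARS, EPRS and MARS2 have their lowest array with shCREB3 in every line, while AARS2 lies below shControl on all 8 shCREB arrays.

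**Figure D4:**
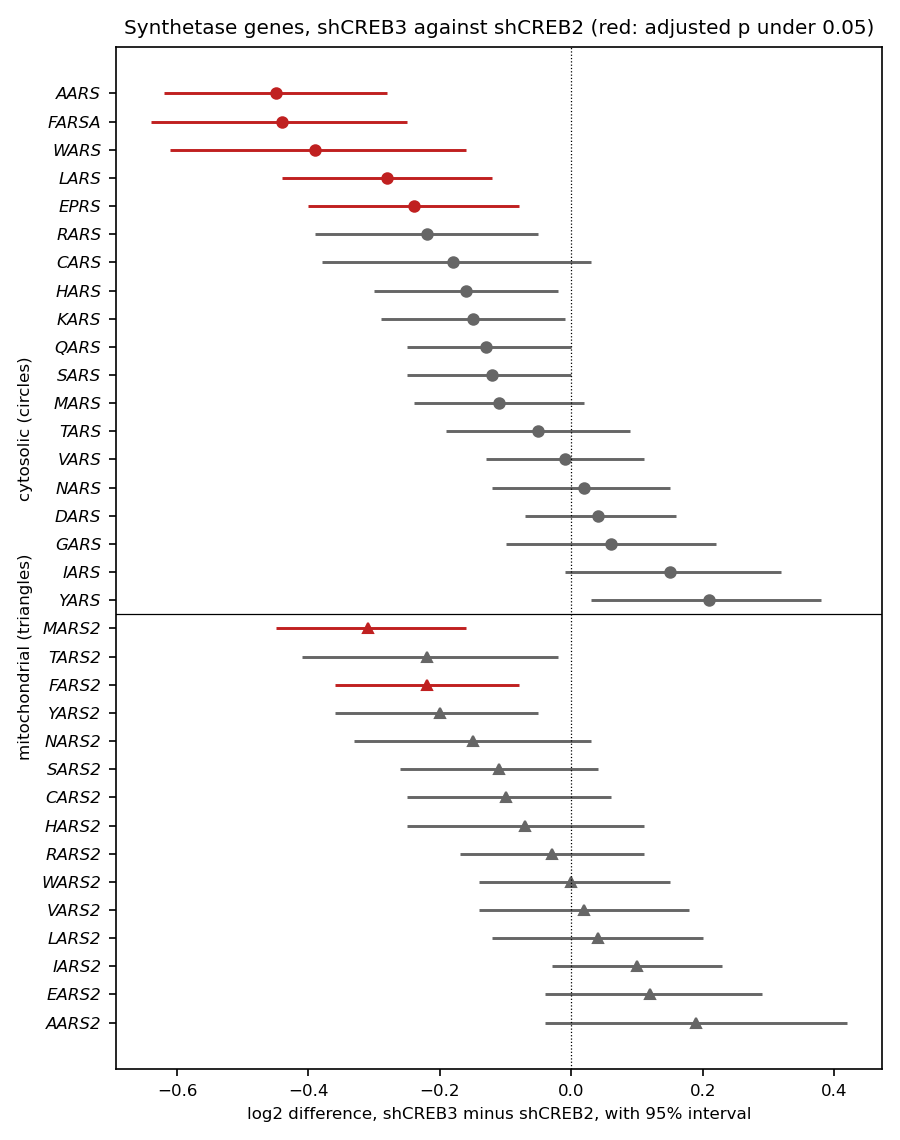
The fitted log2 difference of shCREB3 minus shCREB2 is plotted for each detected gene with its 95% interval, cytosolic genes as circles and mitochondrial genes as triangles, and called genes in red. The 7 red genes run from -0.45 (AARS) to -0.22 (FARS2), and the highest value is that of YARS, 0.21.

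The uncalled members of this comparison reached from -0.22 to 0.21. RARS (-0.22, adjusted p = 0.0845), YARS2 (-0.20, adjusted p = 0.0686) and TARS2 for mitochondrial threonine tRNA (-0.22, adjusted p = 0.124) were the most negative of these. YARS, the cytosolic tyrosine enzyme, was the most positive (0.21, adjusted p = 0.113). Without Jurkat or without Molt4, 0 of 12507 genes and so 0 members were called. FARS2 was not called with any line left out (adjusted p = 0.0828 to 0.21), and LARS only without RS4;11. With median scaling 3 members were called, AARS, FARSA and MARS2, and the share of lower genes among all calls moved from 51.8% to 32.1% (from 73.3% to 38.3% for shCREB3 against shControl).

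In the comparison of shCREB2 with shControl, AARS2 fell and was the only member called, beside 7.80% of all genes called in either direction and 4.18% called lower. AARS2, the mitochondrial alanine enzyme, had levels of 8.53 in Jurkat, 8.78 in Molt4, 8.72 in Nalm6 and 8.17 in RS4;11 with shControl. With shCREB2 they were 8.26, 8.49, 7.82 and 7.82, and with shCREB3 8.18, 8.54, 8.32 and 8.12. AARS2 was lower than shControl on all 8 shCREB arrays, with the widest gap in Nalm6 with shCREB2, the array that stood apart. It fell by 0.45 with shCREB2 (SE 0.10, limma adjusted p = 0.0326), and its difference was -0.30 (adjusted p = 0.0449) without Nalm6. The call was lost without Jurkat (adjusted p = 0.125), Molt4 (0.153) or RS4;11 (0.0565). AARS2 did not pass the test between the shRNAs (0.19, SE 0.10, adjusted p = 0.245). AARS and AARS2, which charge the alanine tRNAs of the cytosol and of mitochondria, were thus called with different shRNAs.

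The cytosolic genes lay on both sides with shCREB2, 9 of 19 above 0 with a median of -0.01, and of the mitochondrial genes 8 of 15 were above 0 with a median of 0.04, beside a median of 0.01 over all genes, of which 46.3% were below 0. limma called 0 cytosolic genes, with 1 higher and 3 lower at an unadjusted p under 0.05, beside 25.3% of all genes. The methods' t-test called 0 members after adjustment and 3 higher without it, beside 14.1% of all genes. WARS was the highest, as given above. The lowest, YARS, had levels of 11.98, 11.55, 11.83 and 11.70 with shControl, and 11.64, 11.24, 11.40 and 11.70 with shCREB2. It was lower in 3 lines and equal in RS4;11, with a difference of -0.27 (SE 0.08, adjusted p = 0.0699). With shCREB3 its levels were 11.68, 11.53, 11.77 and 11.83, and its difference was -0.06 (adjusted p = 0.751).

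With both shRNAs averaged within each line, limma called 0 members and 0 of the 12507 genes (0%). At an unadjusted p under 0.05, 3 members were higher and 5 lower, 8 of 34 in all, beside 21.9% of all genes. The methods' t-test called 0 members after adjustment and 3 lower without it, beside 1749 of the 12507 genes. Of the cytosolic genes 15 of 19 were below 0 with a median of -0.07, and of the mitochondrial genes 11 of 15 with a median of -0.03, beside 47.0% of all genes and a median of 0.00755. AARS2 had the most negative value, -0.35 (SE 0.08, adjusted p = 0.0699).

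Averaged over both shRNAs, the lowest cytosolic differences were FARSA (-0.17, SE 0.08), YARS (-0.17, SE 0.07) and NARS (-0.16, SE 0.06). FARSA was at 0.05 with shCREB2 and at -0.39 with shCREB3. NARS charges asparagine tRNA. NARS had levels of 11.29, 10.85, 11.47 and 11.30 with shControl. They were 11.02, 10.66, 11.22 and 11.35 with shCREB2, and 11.04, 10.69, 11.27 and 11.30 with shCREB3. NARS was below shControl with both shRNAs in Jurkat, Molt4 and Nalm6, but not in RS4;11, and the shRNAs differed by no more than 0.05 in any line. The adjusted p of these 3 genes ranged from 0.18 to 0.247.

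Averaged over both shRNAs, the most positive cytosolic differences were those of WARS (0.12), QARS (0.06) and KARS, the lysine enzyme (0.04). Their limma adjusted p ranged from 0.227 to 0.664. With shCREB2 the differences were 0.31, 0.13 and 0.12, and with shCREB3 they were -0.07, -0.00 and -0.03. QARS had levels of 12.31, 12.38, 12.56 and 12.73 with shControl. They were 12.56, 12.44, 12.78 and 12.71 with shCREB2, and 12.37, 12.32, 12.62 and 12.67 with shCREB3. The shCREB2 array of QARS was the highest in Jurkat, Molt4 and Nalm6, and the difference between the shRNAs, -0.13, did not pass the test (SE 0.06, adjusted p = 0.167). DARS, which charges aspartate tRNA, was lower than shControl on all 8 shCREB arrays, but by only -0.10 (SE 0.05, adjusted p = 0.255).

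Of the mitochondrial genes, RARS2 for arginine was higher than shControl on all 8 shCREB arrays. Its levels with shControl were 8.82, 8.48, 8.42 and 8.39. They were 9.03, 8.64, 8.79 and 8.42 with shCREB2, and 8.98, 8.62, 8.74 and 8.42 with shCREB3. The step was widest in Nalm6 and close to 0 in RS4;11, with a difference of 0.18 (SE 0.06, limma adjusted p = 0.15). IARS2 was higher on 7 of 8 arrays, with levels of 10.57, 10.40, 10.51 and 10.54 with shControl. They were 10.73, 10.42, 10.74 and 10.52 with shCREB2, and 10.78, 10.57, 10.84 and 10.61 with shCREB3. IARS2 had a difference of 0.15 (SE 0.06, adjusted p = 0.187).

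The other mitochondrial values of this comparison were smaller. HARS2 for histidine had 0.10 (SE 0.06, adjusted p = 0.336), with levels of 9.19, 9.34, 9.40 and 9.65 with shControl. They were 9.33, 9.39, 9.82 and 9.58 with shCREB2, and 9.35, 9.33, 9.48 and 9.71 with shCREB3. The Nalm6 shCREB2 array was its highest. YARS2 had -0.13 (SE 0.06, adjusted p = 0.256), with levels of 9.62, 9.28, 9.08 and 9.23 with shControl. They were 9.67, 9.06, 9.12 and 9.26 with shCREB2, and 9.48, 8.90, 8.76 and 9.16 with shCREB3. YARS2 was thus below shControl with shCREB3 in every line, and with shCREB2 only in Molt4. LARS2 for leucine had -0.10 (SE 0.07, adjusted p = 0.424), with levels of 8.31, 8.35, 8.30 and 8.26 with shControl. They were 8.36, 8.15, 7.94 and 8.29 with shCREB2, and 8.36, 8.26, 8.06 and 8.23 with shCREB3, lower in Molt4 and Nalm6 and within 0.06 of shControl in Jurkat and RS4;11.

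The cytosolic genes were then read by their roles. The 12 known as ATF4 targets had medians of -0.03 with shCREB2 and -0.12 with shCREB3, and the other 7 medians of 0.05 and -0.06. Between the shRNAs 4 of the 12 (AARS, WARS, LARS and EPRS) and 1 of the 7 (FARSA) were called lower, beside 7.52% of all genes. In this comparison the median was -0.11 over the 12 and -0.15 over the 7. Synthetases fall into 2 structural classes by their catalytic fold, EPRS holding both, and 9 genes of each class were measured. Class I enzymes had a median of -0.13 and class II enzymes of -0.12 between the shRNAs, with 2 genes of each called lower. The 8 synthetases of the multisynthetase complex had a median of -0.14, with LARS and EPRS called lower. Of its scaffold proteins AIMP2 (-0.19, SE 0.08, adjusted p = 0.128) and EEF1E1 (-0.04, SE 0.10, adjusted p = 0.804) were measured and neither was called.

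ATF4 itself had a difference of -0.24 with shCREB2 (limma adjusted p = 0.0516) and of -0.14 with shCREB3 (adjusted p = 0.308). Of the 21 measured genes of the ATF4 amino acid response list, ATF4 included, 1 was called higher and 3 lower with shCREB2. Of all genes, 3.61% were called higher and 4.18% lower. With shCREB3, 5 of the list were called lower, beside 1.06% of all genes. SLC7A5 and CTH were called lower with either shRNA. The medians of the list were -0.24 with either shRNA, and 0.02 between the shRNAs. In that last comparison 2 of the list were called higher and 4 lower, beside 14.5% of all genes called. PSAT1, an enzyme of serine synthesis, fell by 1.92 with shCREB2 (SE 0.27, adjusted p = 0.00754), and PHGDH, the first enzyme of that pathway, fell by 1.98 with shCREB3 (SE 0.25, adjusted p = 0.0267). DDIT3, a stress-induced transcription factor, rose by 0.44 with shCREB2 (SE 0.07, adjusted p = 0.0127). The highest of the list with shCREB3 was DDIT4 at 0.17 (adjusted p = 0.566). The largest fitted difference of a synthetase between vectors was -0.45.

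The promoter windows of 30 of the 36 members were matched in RefSeq (GRCh38.p14), each running from 250 bases before to 50 after the first-listed start. Windows of DARS, LARS, VARS, YARS, AARS2 and VARS2 were not in the table. Both strands were searched. The full CRE, TGACGTCA, was found in 0 of the 30 windows and in 1.98% of 27305 windows of all genes. Its core TGACG, which also lies within the full CRE, was found in 6 of 16 cytosolic and 5 of 14 mitochondrial windows, beside 25.0% of all. The ATF4 site TGATGNAA was found in 6 of 16 cytosolic and 1 of 14 mitochondrial windows, beside 3.67% of all. All 6 cytosolic matches had the letters TGATGCAA, a form noticed after the search, which 0.923% of all windows hold. A match is a description of the letters and not of binding.

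Of these, 5 are shown because they share these letters, in capitals on either strand. The 30-base windows are from GRCh38.p14 and are written in the direction of the gene: CARS for cysteine at chr11:3057407-3057436 (minus strand), IARS for isoleucine at chr9:92293692-92293721 (minus), MARS for methionine at chr12:57488053-57488082 (plus), NARS at chr18:57621804-57621833 (minus) and TARS for threonine at chr5:33440956-33440985 (plus). The one mitochondrial match, YARS2 at chr12:32756076-32756105 (minus), has other letters at the open base.
CARS: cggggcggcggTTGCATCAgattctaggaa
IARS: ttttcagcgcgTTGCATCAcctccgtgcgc
MARS: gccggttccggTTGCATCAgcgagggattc
NARS: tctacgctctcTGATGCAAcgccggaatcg
TARS: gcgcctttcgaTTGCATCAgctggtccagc
YARS2: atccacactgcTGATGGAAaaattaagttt

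Between the shRNAs the differences were -0.18 for CARS, 0.15 for IARS, -0.11 for MARS, -0.05 for TARS and 0.02 for NARS. For NARS the differences from shControl were -0.17 with shCREB2 and -0.15 with shCREB3. The CRE core was found in GARS, KARS, CARS2, EARS2, NARS2, SARS2 and WARS2, which were not called between the shRNAs. It was not found in the windows of MARS2 and FARS2, which were called. EPRS and WARS, called between the shRNAs, hold the CRE core in place of an ATF4 site, in capitals in the windows GRCh38.p14 chr1:220046689-220046718 and chr14:100376351-100376380, both on the minus strand.
EPRS: gacctgctgactTGACGaagtgtcgtaaag
WARS: gcgaacagccaaTGACGgcgccgtcgggcc

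HARS and HARS2 are neighbours on chromosome 5 with starts 85 bases apart on opposite strands, so that their windows overlap by 184 bases. HARS, the cytosolic histidine enzyme, lay within 0.18 of shControl on all 8 shCREB arrays. HARS2 lay within 0.15 on all of these but the Nalm6 shCREB2 array, where it was 0.42 above.

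Of 5 genes of cytosolic elongation factors, 0 were called by limma and 0 passed an unadjusted p of 0.05 with either shRNA. Of 12 mitochondrial translation factors, GFM1, an elongation factor, fell with shCREB2 (-0.30, SE 0.08, adjusted p = 0.047). With shCREB3 GFM1 was at -0.33 (adjusted p = 0.0765), and the shRNAs differed by -0.02 (adjusted p = 0.876). MRRF, which recycles ribosomes, fell with shCREB3 (-0.44, SE 0.08, adjusted p = 0.0391). Of all genes, 4.18% were called lower with shCREB2 and 1.06% with shCREB3. Between the shRNAs 3 of the 12 were called lower, TUFM (-0.24, adjusted p = 0.0217), MTIF2 (-0.34, adjusted p = 0.0357) and MRRF (-0.46, adjusted p = 0.00785), beside the 7.52% of all genes called lower. Of 18 genes of tRNA processing and export, MTO1, which modifies mitochondrial tRNA, fell with shCREB2 (-0.31, adjusted p = 0.0469). SSB, the La protein that binds new tRNA, also fell with shCREB2 (-0.56, adjusted p = 0.0462). With shCREB3 MTO1 was at -0.33 (adjusted p = 0.0814) and SSB at -0.28 (adjusted p = 0.362). Neither was called between the shRNAs (-0.02 and 0.29). POP4, a protein of RNase P, fell with shCREB3 (-0.42, adjusted p = 0.0418). POP4 (-0.34, adjusted p = 0.0252) and POP5, also of RNase P (-0.42, adjusted p = 0.0187), were called lower between the shRNAs. Of 4 other enzymes that make mitochondrial aminoacyl-tRNA (QRSL1, PET112L, GATC and MTFMT) 0 were called, with differences from -0.23 to 0.21. Of 4 enzymes of selenocysteine tRNA, SEPHS2 was called lower between the shRNAs (-0.36, SE 0.10).

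Of 16 small noncoding RNAs listed, 14 were detected and RNY4 and RMRP were not. Their summed level lay between 12.50 and 13.22 with shControl, between 12.72 and 13.74 with shCREB2 and between 12.76 and 13.47 with shCREB3 on the log2 scale. With shCREB2 5 of 14 rose, beside 3.61% of all genes called higher, and the median was 0.29. The 5 were RNU11 (0.39) and the U1 RNA gene copies RNU1-3, RNU1-5, RNU1A3 and RNU1G2 (0.74 to 0.84). With shCREB3 0 were called and the median was 0.20. Between the shRNAs 1 fell, RNU1-5, beside 7.52% of all genes called lower, and the median was -0.20. The part of the small noncoding RNAs in the synthetase differences was not tested.

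The last question was how the cell lines and lineages differ. The line means of a member spanned a median of 0.45, and the widest span of the 3 arrays within a line had a median of 0.35. For 21 of 34 members, the span between lines was the larger. Between T-ALL and BCP-ALL limma called 0 members on the 4 line means, where 1.05% of all genes were called. At an unadjusted p under 0.05, 4 members were higher and 2 lower in T-ALL, beside 17.1% of all genes. With the line as a random block over the 12 arrays FARS2 was called higher (adjusted p = 0.0313) and VARS lower (adjusted p = 0.0131), in a fit that called 11.0% of all genes. The median was -0.15 over the cytosolic and 0.08 over the mitochondrial genes, beside -0.00581 over all genes.

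The arrays of the lineages did not overlap for 6 of 34 members, KARS, VARS, FARS2, HARS2, NARS2 and VARS2, beside 19.7% of all genes. VARS, the cytosolic valine enzyme, lay between 10.10 and 10.49 on the T-ALL arrays and between 10.83 and 10.93 on the BCP-ALL arrays, a difference of -0.56 (SE 0.15, adjusted p = 0.212). Its levels were 10.17, 10.24 and 10.10 in Jurkat, 10.49, 10.46 and 10.40 in Molt4, 10.93, 10.83 and 10.89 in Nalm6 and 10.86, 10.83 and 10.92 in RS4;11, with shControl, shCREB2 and shCREB3 in turn. Jurkat was the lowest line, Molt4 followed without overlap, and the BCP-ALL lines overlapped. VARS2, its mitochondrial counterpart, was on the other side, with a difference of 0.48 (SE 0.14, adjusted p = 0.236) and T-ALL arrays from 9.99 to 10.37 against 9.52 to 9.80.

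FARS2 lay between 9.12 and 9.39 on the T-ALL arrays and between 8.36 and 8.98 on the BCP-ALL arrays, with a difference of 0.58 (SE 0.18, adjusted p = 0.253). The order was Molt4, Jurkat, Nalm6 and RS4;11, of which only the T-ALL lines overlapped. NARS2, the mitochondrial asparagine enzyme, went the other way at -0.41 (SE 0.15, adjusted p = 0.301), with levels of 8.74, 8.72 and 8.42 in Jurkat, 8.73, 8.74 and 8.53 in Molt4, 9.08, 9.36 and 9.20 in Nalm6 and 8.85, 8.90 and 8.97 in RS4;11. KARS lay between 9.87 and 10.29 in T-ALL and between 9.54 and 9.82 in BCP-ALL. Its levels were 10.00, 10.29 and 10.02 in Jurkat, 9.93, 10.05 and 9.87 in Molt4, 9.72, 9.82 and 9.61 in Nalm6 and 9.58, 9.54 and 9.60 in RS4;11. Jurkat and Molt4, the highest lines for KARS, overlapped, and Nalm6 and RS4;11 each lay apart from the line before it.

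GARS and LARS had wide lineage differences that came from 1 line each. GARS lay between 10.27 and 10.38 on the RS4;11 arrays (10.30, 10.38 and 10.27) and between 11.36 and 11.79 on the other 9. Its levels were 11.79, 11.52 and 11.61 in Jurkat, 11.46, 11.47 and 11.64 in Molt4 and 11.47, 11.36 and 11.47 in Nalm6, and the line means spanned 1.32. Its T-ALL against BCP-ALL difference of 0.71 (SE 0.41, adjusted p = 0.453) was therefore not shared by Nalm6, which overlapped with Molt4. LARS was lowest in Nalm6, between 9.09 and 9.57, against 9.93 to 10.32 in the other lines (difference 0.49, SE 0.28, adjusted p = 0.449). NARS had a difference of -0.39 (SE 0.17, adjusted p = 0.354), with Molt4 the lowest line.

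**Figure D5:**
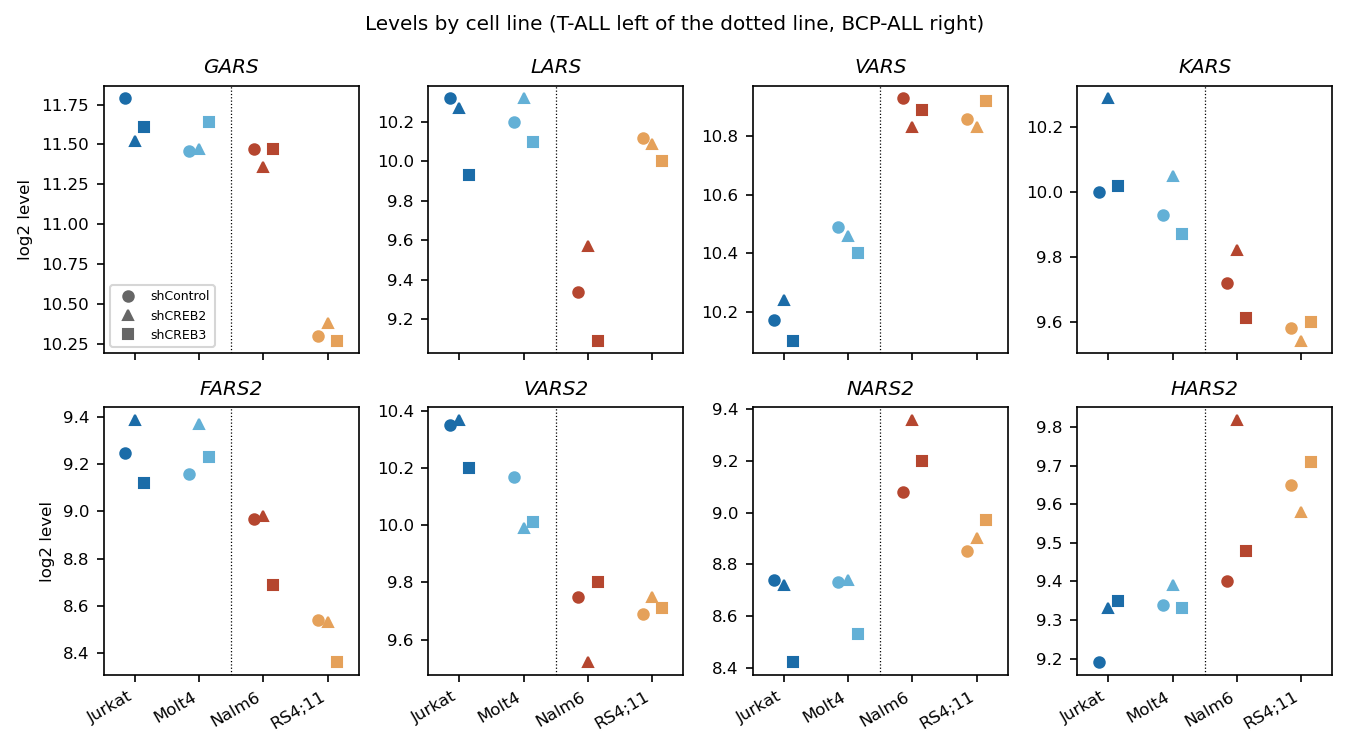
The log2 level of GARS, LARS and the members whose lineages do not overlap is plotted by cell line, with 1 point per array and its shape giving the vector. T-ALL is to the left and BCP-ALL to the right of the dotted line. For KARS, VARS, FARS2, HARS2, NARS2 and VARS2 the arrays of the lineages do not overlap, which also holds for 19.7% of all genes. GARS is low only in RS4;11 (10.27 to 10.38) and LARS only in Nalm6 (9.09 to 9.57).

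Whether the response to both shRNAs differs between the lineages was tested on the 4 line differences. limma called 0 members and 0 of 12507 genes (0%). At an unadjusted p under 0.05, 1 member was found, beside 4.23% of all genes. This was NARS2, with line differences of -0.17 in Jurkat, -0.10 in Molt4, 0.20 in Nalm6 and 0.08 in RS4;11 (difference -0.27, SE 0.10, limma adjusted p = 0.974). With 2 lines per lineage, its 95% interval ran from -0.52 to -0.03.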

How the data were processed

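Probe signals were read from Illumina HumanHT-12 BeadChips. The authors deposited signal intensity values without normalization, each with a detection p-value, and a table of gene means after quantile normalization, which by its values holds natural log numbers although the methods name log2. Decimal marks were missing from 98% of the signals and were restored from the gene means. For symbols with several probes, the restored mean had to lie within 0.02 on the natural log scale. Of 101604 such means, 724 had a second placement within this limit. For symbols with a single probe, the placement nearest the deposited value was taken. In all, 17 probes of 1 gene were left out.

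Quantile normalization and the log2 step were then done here on the restored signals. The brightest detected probe stood for each symbol. Second detected probes of CARS and WARS gave the same signs between the shRNAs. Differences were fitted with limma 3.58.1 in R 4.3.3 (lmFit, eBayes) with the cell line as a block, and adjusted by Benjamini-Hochberg over 12507 genes. Genes were called at an adjusted p under 0.05. The arrays of a line are paired because they come from the same line, and their deviations from the vector means correlated between 0.833 and 0.953. Lineages were compared on 4 line means. Python 3.11.15, numpy 2.4.6, pandas 2.3.3 and matplotlib 3.10.9 served for tables and figures.

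The members and lists were chosen with earlier results of these data known. Values are given for called members, for the 3 largest differences per direction and class with both shRNAs, and for the 3 largest per direction between lineages. Fits were tested on simulated data. Alternatives were other background corrections, scalings, filters, probe rules and fits, the methods' t-test, and each line or array left out. Some items are not reported here.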

Additional observations from a re-analysis of the deposited data

Results flagged for a closer look

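In groups of 4 arrays or 4 lines, 6 of 100 groups of named members had 1 value far from the other 3 by Dixon's criterion, which chance passes in about 1 of 20 groups. The shCREB2 difference of AARS2 was -0.89 in Nalm6, against -0.35 to -0.27 in the other lines, on the array that stood apart from the rest. The shCREB2 difference of YARS2 was -0.22 in Molt4 and 0.03 to 0.05 in the others. FARSA with shControl was at 8.36 in RS4;11 and at 8.75 to 8.83 in the others. GARS was at 10.38 in RS4;11 with shCREB2, against 11.36 to 11.52, and at 10.27 with shCREB3, against 11.47 to 11.64. LARS with shCREB3 was at 9.09 in Nalm6, against 9.93 to 10.10.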

How the results depend on the processing

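For single members, the 725 alternative values computed held 10 with a changed direction, all in comparisons where the member was not called. They also held 115 that were no longer past the threshold and 2 that newly were. With single lines left out, values with both shRNAs ran from -0.08 to 0.01 for FARS2 (0.01 without Nalm6, 0.00 without RS4;11), from -0.09 to 0.02 for GARS (0.02 without Jurkat) and from -0.06 to 0.06 for NARS2 (-0.06 without Nalm6, -0.02 without RS4;11), which was 0.00, and -0.00 with normexp. Between lineages they ran from -0.16 to 0.07 for IARS2 (0.07 without Molt4, 0.02 without Nalm6), from -0.27 to 0.06 for YARS (0.06 without Molt4) and from -0.02 to 0.49 for YARS2 (-0.02 without Jurkat). Without pairing by line (no replicate block), 0 members were called with shCREB2, with shCREB3 and between the shRNAs, in place of 1, 1 and 7. The methods' t-test, adjusted, also gave 0 in each. With only the 8 arrays compared, 0 members were called with shCREB2, 2 with shCREB3 (AARS and FARSA) and 1 between the shRNAs (FARSA). The call of AARS with shCREB3 was lost with normexp background correction, median scaling, the deposited values and no detection filter (0 members each), and 2 members were called among genes detected on all 12 arrays. Between the shRNAs, median scaling left 3 members and moved the mean cytosolic median over lines from -0.12 to -0.05. With a line or an array left out, 0 to 1 members were called with both shRNAs (AARS2 without the RS4;11 shCREB3 array, an alternative added after seeing the data), 0 to 3 with shCREB2, 0 to 3 with shCREB3 and 0 to 9 between the shRNAs. With the line as a random block, 2 members were called between lineages. The causes were not tested. Over all genes, calls with both shRNAs moved from 0 to 127 with median scaling, 219 among genes detected on all arrays and 361 without RS4;11. With shCREB2 they moved from 975 to 0 without the block, with 8 arrays, or without Jurkat or Molt4. With shCREB3 they moved from 180 to 697 with 8 arrays and to 0 without the block, and between the shRNAs from 1814 to 4 without the block and 319 with 8 arrays. Between lineages they moved from 131 to 1375 with the random block. FARSB and PARS2 lie too near background to be followed, and WARS2 only in part.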
